A study of Mus musculus with 6 samples.

Results

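Genes of the peroxisome and of fatty acid oxidation were examined in neuro2a (N2a) cells, a mouse neuroblastoma line, after RNAi against 2 subunits of the transcription factor NF-Y. The set was a list of 45 genes drawn up by function, with earlier results of these data known. Of them, 44 were measured among 16490 genes tested on the arrays. Far1, a reductase that makes fatty alcohols for ether lipids, had no probe and was not measured. The control group was 3 samples of N2a cells given an empty vector, and the knockdown group was 3 samples of N2a cells given vectors for RNAi of both NF-YA and NF-YC. Both groups were transfected cultures of the same line, and no sorting for cells that had taken up the vector was described for them, so each RNA sample may hold cells without it. Nothing in the labels says that the 3 samples of a group were separate cultures, so the p-values measure only the spread between these samples, which may be technical.

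Peroxisomes shorten very long, branched and dicarboxylic fatty acids, remove hydrogen peroxide with catalase and carry out the opening steps of ether lipid synthesis. Their matrix enzymes are made in the cytosol and imported by peroxins, the products of the Pex genes. Mitochondria take up long chain fatty acids through the carnitine shuttle and shorten them by repeated rounds of dehydrogenation, hydration, a second dehydrogenation and thiolysis. NF-Y binds the sequence CCAAT in promoters as a trimer of NF-YA, NF-YB and NF-YC.

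Each level below is the log2 of an array's processed signal for 1 probe minus the 75th percentile of that array, and each change is the knockdown mean minus the control mean on that log2 scale. A gene was called when its limma p-value, adjusted over all probes tested by Benjamini-Hochberg, was below 0.05 and its fold change was above 1.5. Levels of different genes come from different probes and were not compared with each other. As a check of the labels, Nfyc was 3.97 ± 0.034 (SD, n = 3) in control and 2.17 ± 0.038 in knockdown, a change of -1.81 (SE 0.045, limma adjusted p = 0.000323). Nfya changed from 0.17 ± 0.037 to -0.59 ± 0.071, a difference of -0.76 (SE 0.055, limma adjusted p = 0.00128). Nfyb, which was not targeted, was higher in knockdown by 0.83 (SE 0.060, limma adjusted p = 0.00131).

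Across all genes tested, 824 were called lower and 644 higher in knockdown, which became 1175 lower and 382 higher with arrays scaled to their median. Arrays correlated at 0.989 to 0.994 within groups and at 0.987 to 0.990 between groups, and 61.9% to 66.2% of spots per array were well above background. All 6 arrays lay on 1 slide. The 3 control arrays and knockdown replicate 1 were in the first row, and knockdown replicates 2 and 3 in the second row. All 15 markers of sympathetic neuroblastoma were well above background on all 6 arrays. Their summed level was 8.81 to 8.85 in control and 8.71 to 8.76 in knockdown, and 1 of them, Th, was called lower at -0.62. Others passed the adjusted test below the fold threshold, in both directions. Gata2, Isl1 and Gata3 had changes of 0.56, 0.49 and 0.22, and Phox2a, Stmn2 and Gap43 of -0.49, -0.25 and -0.25. Of the markers of other cell types, none of the 3 measured adipocyte markers was well above background on every array, although their summed level was -5.20 to -4.99 in control and -4.64 to -3.86 in knockdown. The 3 astrocyte markers, 2 of them well above background on every array, summed to -2.45 to -2.27 in control and -2.73 to -2.58 in knockdown. Of 5 fibroblast markers, 4 of them well above background on every array, Pdgfra was called higher at 1.29 and Col1a1 lower at -0.77, and their summed level was -2.17 to -1.95 in control and -1.98 to -1.79 in knockdown. Among 3 microglia markers, only Csf1r was well above background on every array. Their summed level was 1.12 to 1.65 in control and 1.02 to 1.32 in knockdown. Among 2 measured hepatocyte markers, only Cyp2e1 was well above background on every array, and they summed to -4.28 to -3.86 in control and -4.20 to -3.92 in knockdown. No marker of either type was called. The part of these differences in the results below was not tested.

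Of the 44 measured genes, 6 were called lower in knockdown and 0 were called higher. The 6 were the mitochondrial enzymes Echs1 and Acaa2 and the peroxisomal enzymes Ehhadh, Pecr, Hacl1 and Gnpat. They made up 13.6% of the measured members, where 5% of all genes tested were called lower, 3.91% higher and 8.9% in either direction. The members were chosen with earlier results of these data known, so such shares describe the list and test nothing. Without a minimum fold change, 10 members (22.7%) were lower and 2 (4.55%) higher at an adjusted p below 0.05, against 15.8% and 15.7% of all genes and 31.5% in either direction. At a minimum of 2-fold, 3 members (Echs1, Acaa2 and Ehhadh) were called lower and 0 higher, against 1.73% and 1.1% of all genes and 2.83% in either direction. The median change of the members was -0.017, beside 0.0053 over all genes, with 22 members below 0 and 22 above. The other 38 members had changes between -0.44 and 0.56, and 36 of them had a 95% confidence interval that lay inside a 1.5-fold change in both directions. All 44 measured members were well above background on all 6 arrays. In bulk RNA, fewer cells with a transcript and less of it per cell cannot be told apart.

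**Figure D1:**
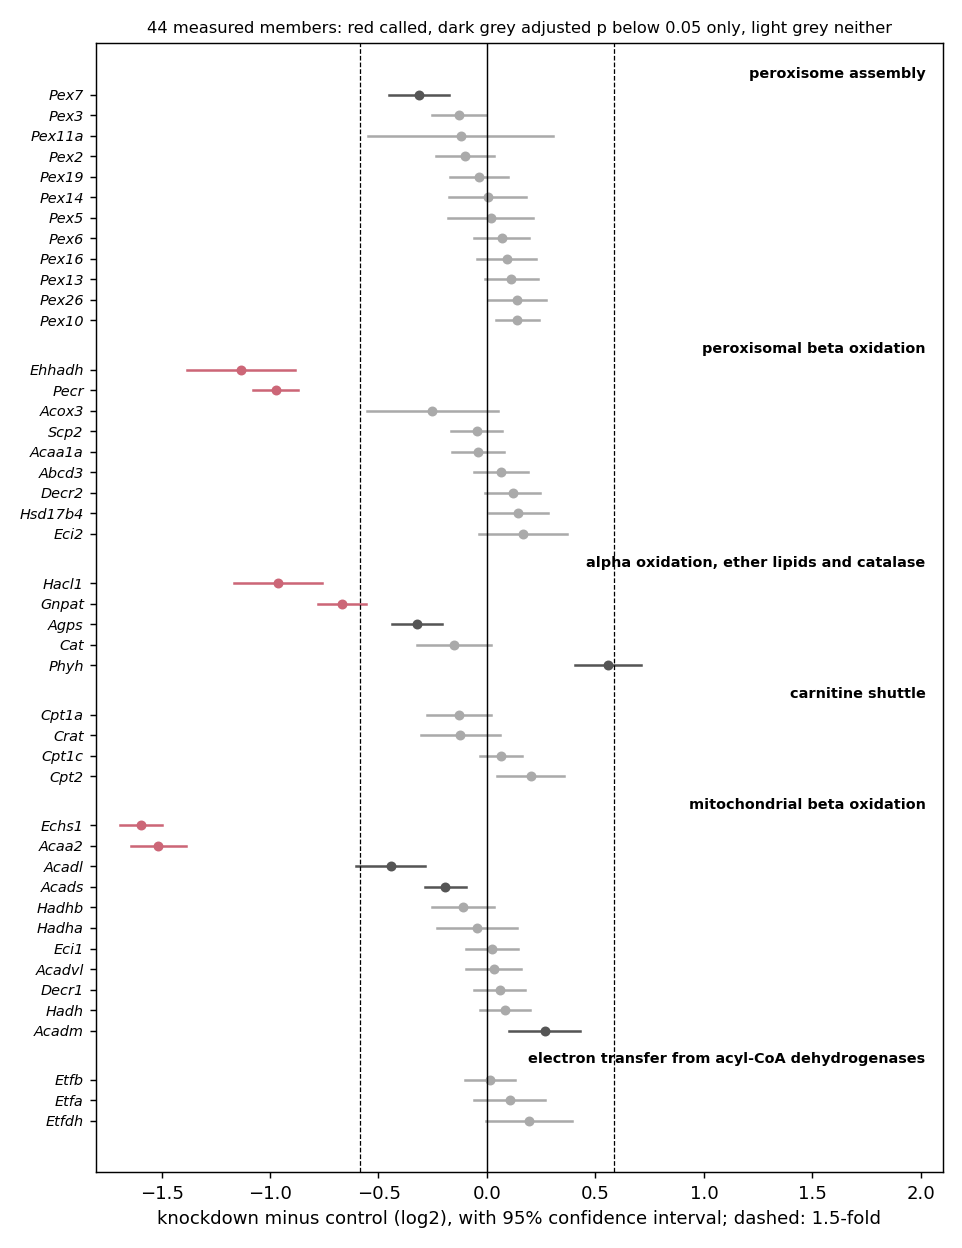
Change of each of the 44 measured members, as the knockdown mean minus the control mean on the log2 scale (horizontal axis), with its 95% confidence interval from limma, grouped by role and ordered by size within each group. Dashed lines mark a 1.5-fold change. The 6 called genes, in red, lie at -0.67 or below, while most of the others lie close to 0.

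The decreases of greatest size among the members were in mitochondrial beta oxidation. Of its 11 members, Echs1 and Acaa2 were called lower. Echs1 is the short chain enoyl-CoA hydratase, which adds water to the double bond left by the acyl-CoA dehydrogenases. Its level was 3.55, 3.53 and 3.54 in the 3 control samples and 1.96, 1.95 and 1.93 in the 3 knockdown samples. The groups were separated by a gap far wider than the spread within either one. The change was -1.59 (SE 0.038, limma adjusted p = 0.000323), which left the knockdown signal at 33.1% of control.

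Acaa2 is the mitochondrial thiolase that releases acetyl-CoA at the end of a round. Its level was 3.46, 3.43 and 3.43 in control and 1.97, 1.85 and 1.95 in knockdown, again without overlap. The change was -1.51 (SE 0.049, limma adjusted p = 0.000323), and the knockdown signal was 35.0% of control. The genes for the mitochondrial trifunctional protein, which carries out these steps on long chains, did not pass the test. Hadha, its alpha subunit, was 1.52, 1.45 and 1.35 in control and 1.49, 1.38 and 1.31 in knockdown. Hadhb, its beta subunit, was 3.68, 3.73 and 3.76 in control and 3.69, 3.58 and 3.56 in knockdown. Knockdown and control values overlapped for both subunits. The changes were -0.046 (95% interval -0.23 to 0.14) for Hadha and -0.11 (95% interval -0.25 to 0.03) for Hadhb, with limma adjusted p-values of 0.698 and 0.225.

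The acyl-CoA dehydrogenases, which open each round and differ by the chain length they accept, had changes of either sign. Acadl, the long chain enzyme, was 0.03, -0.08 and 0.08 in control and -0.41, -0.50 and -0.39 in knockdown. It fell by 0.44 on the log2 scale (SE 0.063, limma adjusted p = 0.00813), short of the 1.5-fold threshold, with every knockdown value below every control value. With the slide row as a term in the fit its change was -0.42 and no longer passed (limma adjusted p = 0.0820). With that term, a change rests on knockdown replicate 1 alone against the controls, because the second row holds no control array. Acads, the short chain enzyme, fell by 0.19 (SE 0.038, limma adjusted p = 0.0216). Acadm, the medium chain enzyme, rose by 0.27 (SE 0.065, limma adjusted p = 0.0406). Neither passed throughout, since with the slide row as a term the limma adjusted p was 0.148 for Acads and 0.125 for Acadm, and leaving out a single array lost the adjusted test in 6 of 6 fits for Acads and in 5 of 6 for Acadm. With arrays scaled to their median, Acadm was at 0.15 (limma adjusted p = 0.379). Acadvl, the very long chain enzyme, had a change of 0.032 and did not pass the test. The test compared each gene between groups, and the differences among the dehydrogenases themselves were not tested.

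The remaining genes of the round did not pass the test. Hadh, the short chain hydroxyacyl-CoA dehydrogenase, had a change of 0.082. Eci1 and Decr1, which deal with double bonds of unsaturated chains, had changes of 0.024 and 0.058. The electron transfer genes Etfa, Etfb and Etfdh, which pass electrons from the dehydrogenases to the respiratory chain, had changes of 0.11, 0.013 and 0.19. None of the 3 was called.

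**Figure D2:**
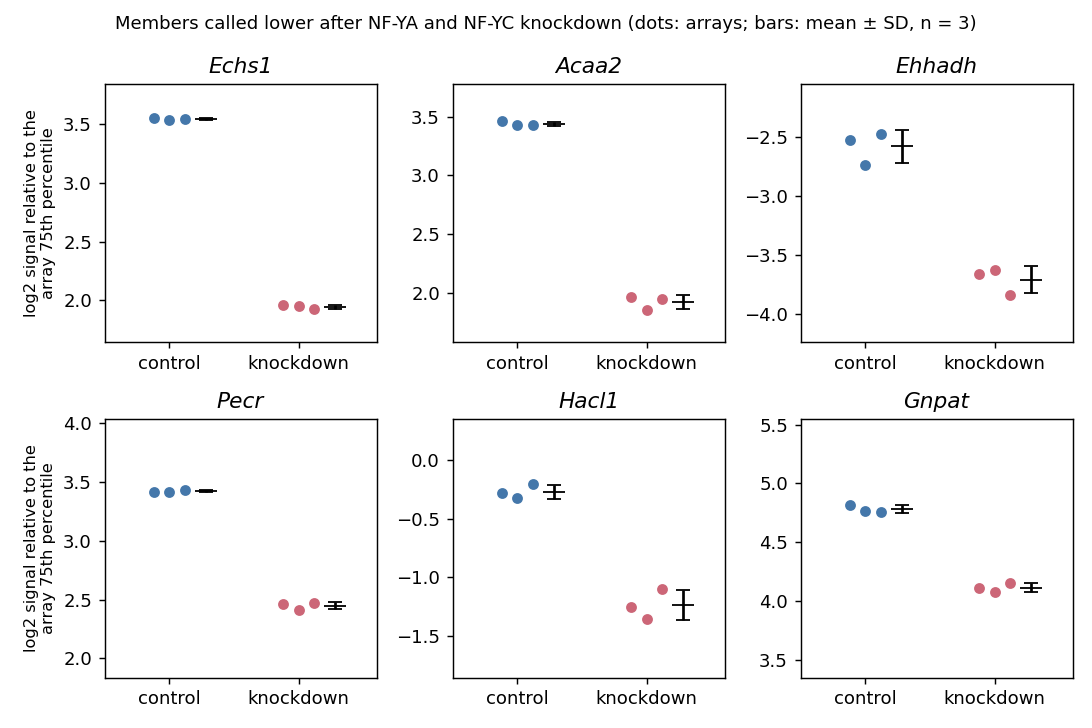
Log2 level of the 6 called members in every array (vertical axis, log2 signal relative to the array's 75th percentile), with control on the left and knockdown on the right of each panel. Dots are arrays and bars are mean ± SD (n = 3). In each panel the 3 knockdown arrays lie below the 3 control arrays, and every vertical axis spans the same width in log2 units.

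None of the 4 members in the carnitine shuttle was called or passed the adjusted test. Cpt1a, the outer membrane carnitine palmitoyltransferase that limits entry of long chains into mitochondria in most tissues, was 2.36, 2.38 and 2.41 in control and 2.34, 2.17 and 2.25 in knockdown. The change was -0.13 (SE 0.058, 95% interval -0.28 to 0.02, limma adjusted p = 0.181), and all knockdown values lay below the control values. A second, dimmer probe of Cpt1a had a change of 0.084 (limma adjusted p = 0.555). Cpt1c, the neuronal form, was 0.95, 0.93 and 0.92 in control and 0.98, 1.01 and 1.01 in knockdown. Its change was 0.066 (SE 0.038, limma adjusted p = 0.285). Cpt2, the inner membrane enzyme, and Crat, which acts on short chains, had changes of 0.20 (limma adjusted p = 0.0726) and -0.12 (limma adjusted p = 0.287). Outside the members, the related genes Cpt1b, Slc22a5 and Slc25a20 had changes of -0.54, 0.29 and 0.17 (limma adjusted p = 0.0104, 0.0381 and 0.116). They were not called. Cpt1b was called lower with quantile normalization (-0.64), with arrays scaled to their median (-0.65) and with the mean of its probes (-1.03).

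Of the 9 members listed under peroxisomal beta oxidation, Ehhadh and Pecr were called lower, though Pecr works in chain elongation. Ehhadh encodes the L-bifunctional enzyme, a hydratase and dehydrogenase acting on dicarboxylic and other chains. Its level was -2.52, -2.74 and -2.47 in control and -3.67, -3.63 and -3.84 in knockdown. The change was -1.13 (SE 0.098, limma adjusted p = 0.00196), which left 45.6% of the control signal. With a model-based background correction (normexp) and quantile normalization its change was -0.69, still called.

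Pecr encodes a peroxisomal trans-2-enoyl-CoA reductase, which works in chain elongation. It was 3.42, 3.42 and 3.43 in control and 2.47, 2.41 and 2.47 in knockdown. The change was -0.97 (SE 0.040, limma adjusted p = 0.000402), or 50.9% of the control signal. The control values of Pecr spread by an SD of only 0.0085, so its groups stood far apart. Hsd17b4, the D-bifunctional enzyme that handles most very long and branched chains, had a change of 0.15 (limma adjusted p = 0.120). The thiolases Acaa1a and Scp2 had changes of -0.041 and -0.048, and the half-transporter Abcd3 had a change of 0.065. None of these passed the test. Acox3, an acyl-CoA oxidase for branched chains, had a change of -0.25 (SE 0.12, limma adjusted p = 0.203).

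The group of alpha oxidation, ether lipid synthesis and catalase had 5 measured members, of which Hacl1 and Gnpat were called lower. Alpha oxidation takes 1 carbon off 3-methyl-branched chains such as phytanic acid before beta oxidation can proceed. Phyh, the hydroxylase that begins it, was 0.37, 0.25 and 0.42 in control and 0.88, 0.91 and 0.93 in knockdown. It rose by 0.56 (SE 0.060, limma adjusted p = 0.00362), just under the 1.5-fold threshold, and was called higher at 0.60 when control replicate 3 was left out. Hacl1, the lyase that follows Phyh in the same pathway, was -0.28, -0.33 and -0.21 in control and -1.25, -1.35 and -1.10 in knockdown. Its change was -0.96 (SE 0.080, limma adjusted p = 0.00176), or 51.3% of control. The genes of these 2 steps thus moved in opposite directions, each with no overlap between groups. The difference between their changes was not tested.

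Gnpat and Agps act one after the other at the start of ether lipid synthesis. Gnpat, the acyltransferase that begins the pathway, was 4.82, 4.77 and 4.76 in control and 4.11, 4.08 and 4.15 in knockdown. It changed by -0.67 (SE 0.044, limma adjusted p = 0.00106), which left 62.9% of control. Agps, the synthase that makes the ether bond, was 2.86, 2.79 and 2.89 in control and 2.54, 2.51 and 2.53 in knockdown. It fell by 0.32 (SE 0.045, limma adjusted p = 0.00786), below the fold threshold, and with the slide row as a term the limma adjusted p was 0.0783. Both genes were lower in all 3 knockdown samples than in all 3 control samples. Catalase (Cat), which splits hydrogen peroxide, was -0.63, -0.50 and -0.45 in control and -0.76, -0.64 and -0.64 in knockdown with its brightest probe. The change was -0.15 (SE 0.068, limma adjusted p = 0.178). A second, dimmer probe of Cat was called lower at -0.60 (SE 0.079, limma adjusted p = 0.00659), so the 2 probes did not give the same call.

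None of the 12 measured peroxins was called. Pex7, the receptor that imports proteins with the amino-terminal targeting signal, among them Phyh, Agps and the thiolase Acaa1a, was 1.13, 1.06 and 1.19 in control and 0.86, 0.76 and 0.82 in knockdown. It fell by 0.31 (SE 0.055, limma adjusted p = 0.0150), with no overlap between groups. With the slide row as a term the change was -0.27 and did not pass (limma adjusted p = 0.127), and 3 of the 6 fits that left out an array did not pass either. Pex5, the receptor for the carboxy-terminal signal, was 0.98, 0.98 and 1.19 in control and 1.12, 1.07 and 1.003 in knockdown, and its values overlapped. Its change was 0.017 (SE 0.077, limma adjusted p = 0.898). The other 10 peroxins, which form the docking and export complexes, recruit membrane proteins or divide the organelle, had changes from -0.13 (Pex3) to 0.14 (Pex10).

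**Figure D3:**
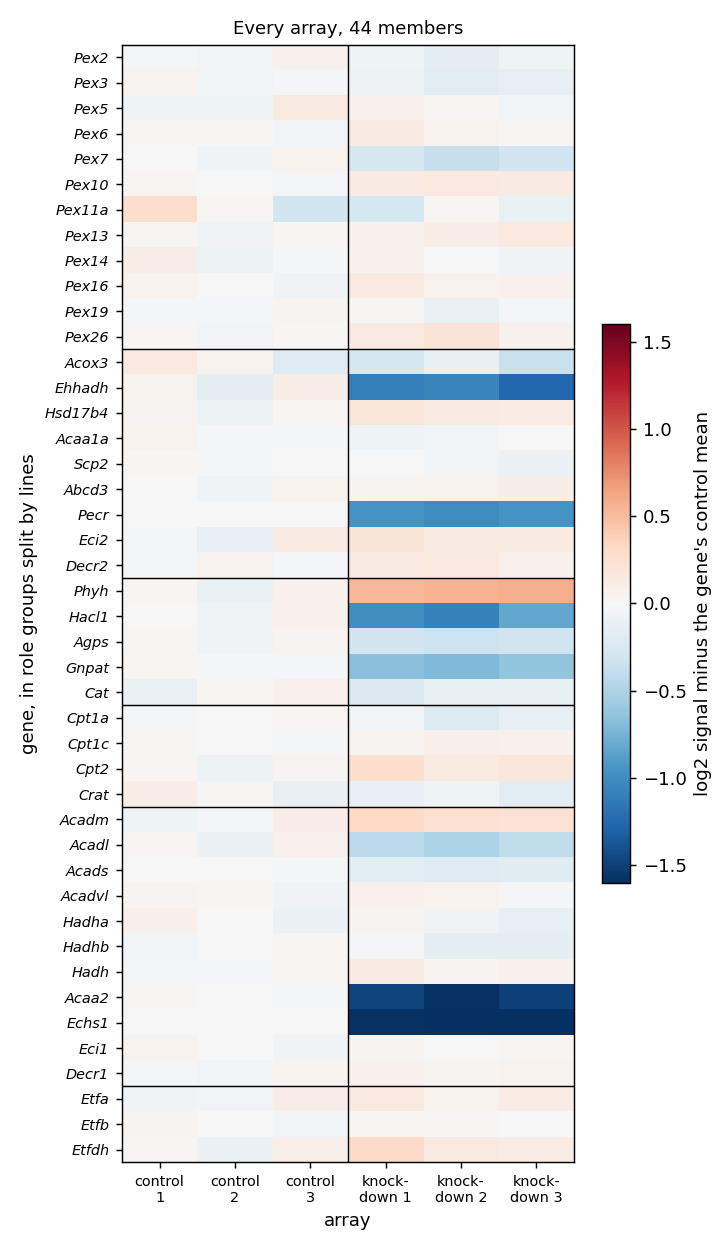
Level of every measured member in every array as a colour, given as the log2 signal minus the mean of that gene's 3 control arrays. Rows are genes in the role groups named in the text, separated by lines, and columns are the 6 arrays. The rows of Echs1, Acaa2, Ehhadh, Pecr, Hacl1 and Gnpat are blue in all 3 knockdown arrays, and that of Phyh is red.

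Taking both compartments together, 4 of 26 measured peroxisomal members and 2 of 18 mitochondrial members were called lower (15.4% and 11.1%), beside 5% of all genes. The mitochondrial count is Echs1 and Acaa2 alone. In 14 members all knockdown values lay below all control values, and in 12 they lay above, which was 31.8% and 27.3% of the members beside 27.1% and 27.7% of all genes. Values overlapped in the other 18. Over all genes, 54.7% had groups that did not overlap. Of the 11 members with a second tested probe, 4 had a second probe that passed the adjusted test, namely those of Acox3, Cat, Cpt2 and Pex6. The second probe of Acox3 gave -0.54 (limma adjusted p = 0.00286), those of Cpt2 and Pex6 0.28 and 0.25 (limma adjusted p = 0.0222 and 0.0244). Those of Cpt1a and Scp2 had the opposite sign to the brightest probe, and no probe of either gene passed. None of the 6 called members had another tested probe.

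Because the slide row was shared by both groups only for knockdown replicate 1, each called change was also taken within that row, as knockdown replicate 1 against the 3 controls. The changes were -1.58 for Echs1, -1.47 for Acaa2, -1.09 for Ehhadh, -0.96 for Pecr, -0.98 for Hacl1 and -0.67 for Gnpat. The sizes were close to those from all arrays, but with a single knockdown sample none of the 16490 genes passed the adjusted test. With the row as a term in the fit to all 6 arrays, the changes were the same as within the row. The second row holds no control array, so knockdown replicates 2 and 3 added only to the estimate of spread. With that term, all 6 genes were called. Of the 12 members that passed the adjusted test without that term, 7 passed with it, the 6 called genes and Phyh.

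Because NF-Y binds CCAAT, the deposited changes were set beside promoter sequences, taken from RefSeq for 39 members (build GRCm38.p6) as 250 bases before to 50 bases after the annotated start. Hsd17b4, Pex19, Crat, Decr1, Acaa2 and Pex2 were named only. All annotated starts of a gene were searched, and a gene was counted once. CCAAT, on either strand, was present for 17 of the 39 members (43.6%), beside 41.1% of all genes with a window and 42.6% of such genes that were tested. Counted by window, it was in 37.4% of all windows of this length. Among the 5 called members with a window, 3 held it, and among the 33 uncalled measured members 13 did (39.4%). Over all tested genes it was held by 55.8% of those called lower and 42.1% of those not called. The longer CCAATCA, which contains CCAAT, was held by 8 of the 39 members (20.5%) and by none of the 5 called members, beside 11.1% of all tested genes, 20.9% of tested genes called lower and 7.82% of all windows. A match is a description of these letters and not a binding site, and its absence says only that the letters are not in this window.

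The 250 bases upstream of the start are shown for the called genes Echs1 and Ehhadh, which differ in holding the motif, and for Cpt1a, Cat and Etfb, which hold it and were not called. Each is written 5′ to 3′ on the strand of the gene, in lower case, with matches to CCAAT or to its reverse complement in capitals. The regions, all in GRCm38.p6, are chr7:140116422-140116671 (minus strand) for Echs1, chr16:21787835-21788084 (minus) for Ehhadh, chr19:3323051-3323300 (plus) for Cpt1a, chr2:103485154-103485403 (minus) for Cat and chr7:43443822-43444071 (plus) for Etfb.
Echs1: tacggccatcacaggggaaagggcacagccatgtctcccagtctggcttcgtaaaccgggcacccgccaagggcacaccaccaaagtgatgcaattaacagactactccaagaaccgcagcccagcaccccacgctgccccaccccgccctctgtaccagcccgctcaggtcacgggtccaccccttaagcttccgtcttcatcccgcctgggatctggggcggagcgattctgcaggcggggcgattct
Ehhadh: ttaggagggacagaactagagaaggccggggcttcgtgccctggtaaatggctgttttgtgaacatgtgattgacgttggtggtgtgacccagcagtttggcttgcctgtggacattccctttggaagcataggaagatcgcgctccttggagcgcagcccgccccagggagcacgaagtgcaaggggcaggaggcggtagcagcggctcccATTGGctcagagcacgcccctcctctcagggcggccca
Cpt1a: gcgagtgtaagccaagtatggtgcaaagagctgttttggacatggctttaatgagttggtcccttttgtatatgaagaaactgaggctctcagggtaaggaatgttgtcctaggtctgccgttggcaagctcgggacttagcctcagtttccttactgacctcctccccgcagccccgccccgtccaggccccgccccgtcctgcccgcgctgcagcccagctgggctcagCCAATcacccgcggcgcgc
Cat: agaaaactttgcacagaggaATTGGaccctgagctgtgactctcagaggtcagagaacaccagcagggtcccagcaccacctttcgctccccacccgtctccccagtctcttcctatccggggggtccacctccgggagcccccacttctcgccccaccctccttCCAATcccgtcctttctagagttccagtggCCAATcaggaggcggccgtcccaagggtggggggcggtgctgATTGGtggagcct
Etfb: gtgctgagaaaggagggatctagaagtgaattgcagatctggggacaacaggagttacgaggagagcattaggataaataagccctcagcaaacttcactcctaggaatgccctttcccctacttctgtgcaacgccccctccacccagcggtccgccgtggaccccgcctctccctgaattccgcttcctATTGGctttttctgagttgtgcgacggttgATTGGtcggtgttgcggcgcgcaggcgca
Echs1, with the largest change of any member, held no match in this stretch, and Ehhadh held 1 on the reverse strand, 38 bases upstream of its start. Cpt1a held 1 match 19 bases upstream, Cat held 4 and Etfb held 2, and the changes of their brightest probes were -0.13, -0.15 and 0.013.

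Pecr and Hacl1 each start close to a gene that runs the opposite way, and their single matches lie past that neighbour's start. For Pecr, 52 bases from the start of Tmem169, the match was on the forward strand 207 bases upstream. For Hacl1, 92 bases from the start of Btd, it was on the reverse strand 184 bases upstream. The match with 10 bases on each side is shown for both, at chr1:72284514-72284538 and chr14:31641135-31641159, each on the minus strand of GRCm38.p6.
Pecr: tcgtttccccCCAATgtcaccgaca
Hacl1: atcctcagagATTGGgtttcttacc
Gnpat, 4 bases from the start of 2810004N23Rik, held no match. The neighbours were not called. Tmem169 and 2810004N23Rik had changes of -0.021 and -0.064 and did not pass the test, and Btd rose by 0.29 (limma adjusted p = 0.0170).

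**Figure D4:**
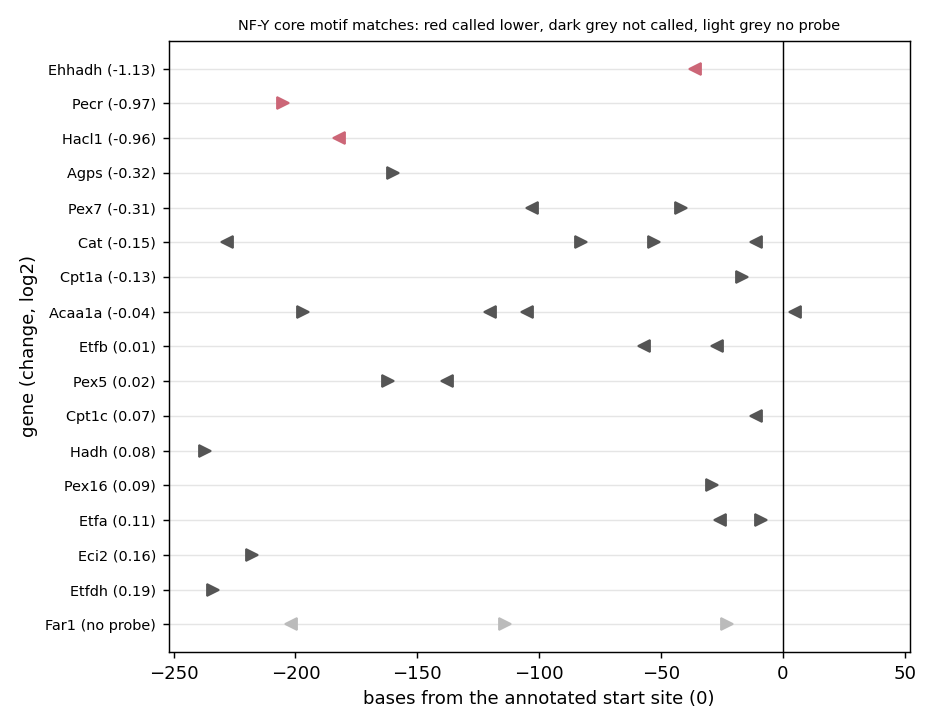
Positions of CCAAT matches in the members' promoter windows, in bases from the annotated start at 0 (horizontal axis, match centres), with each gene's log2 change in brackets. Arrowheads pointing right are matches on the strand of the gene and those pointing left on the reverse strand, the windows of all annotated starts of a gene are drawn together, red marks called genes, dark grey uncalled genes and light grey Far1, which had no probe. Cat and Acaa1a each have 4 matches, and Ehhadh, Pecr and Hacl1 have 1 each.

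A further list of 109 genes took in the same pathways, their regulators and neighbouring ones such as amino acid breakdown and the mevalonate pathway. Of the 93 tested, 9 were called lower (9.68%) and 1 higher (1.08%), beside 5% and 3.91% of all genes. At an adjusted p below 0.05 alone, 30 were lower (32.3%) and 10 higher (10.8%), beside 15.8% and 15.7% of all genes. The median change was -0.081. This list too was written with earlier results of these data known, so its shares are a description and not a test. Called lower were Pex11g and Acbd5, which act in peroxisome division and contact with the endoplasmic reticulum, at -0.59 and -0.61. Pxmp4, a peroxisomal membrane protein, changed by -1.45, and Tysnd1, the protease that trims imported matrix enzymes, by -1.05. Pmvk, a kinase of the mevalonate pathway, changed by -0.62, and Tmem189, the desaturase that makes plasmalogens from ether lipids, by -0.99. Ivd and Mcee, described further below, were called lower at -1.25 and -0.82. Lpin1, a phosphatidate phosphatase and coactivator of fatty acid oxidation genes, had the largest change, -2.82 (SE 0.17, limma adjusted p = 0.000788), to 14.2% of control. Its level was 0.50, 0.48 and 0.56 in control and -2.37, -2.58 and -1.95 in knockdown. Acox2, called higher, stood well above background on 0 control arrays and on 1 knockdown array, so the size of its change is uncertain. Its call was lost with normexp correction and with the slide row as a term (limma adjusted p = 0.0523).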

How the data were processed

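RNA of N2a cells was measured on 6 single-colour Agilent arrays. The authors extracted spot values with Agilent Feature Extraction 10.10.1.1. Tables deposited from it give a linear intensity for each spot, the processed signal, from which the software had already taken background. The deposited series matrix holds log2 values. Their differences from control replicate 1 matched those of the scaling below within 0.0076 over 43557 probes. The values themselves were not matched. Column medians of the matrix were -0.012 to 0.018, and the scale was inferred from the values.

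Groups and replicate numbers came from sample titles. Control spots and flagged outlier spots were left out. The log2 processed signal minus the array's 75th percentile was averaged over spots of a probe. Probes were tested when at or above the 20th percentile on all 3 arrays of at least 1 group (42126 probes, 16490 named genes), with limma 3.58.1 in R 4.3.3 (lmFit, eBayes). The brightest tested probe stood for a gene. Symbols came from RefSeq GRCm38.p6 by accession (25869 of the 26392 probes listed under a RefSeq mRNA matched). Of the 42126 tested probes, 20548 had no symbol. The number of arrays limits precision.

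The members and the lists were chosen with earlier results of these data known. Named in full are the called members, those with the next largest changes past the adjusted test (Phyh, Acadl, Agps) and Cpt1a, Cpt1c, Hadha, Hadhb, Cat, Pex5 and Pex7. Same-numbered samples did not deviate together (correlations of 0.0025 to 0.067), so replicate numbers were not used as pairs. Alternatives covered normalization, background correction, filters, fold thresholds, variance models, blocks, probe choice and leaving out each array.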

Additional observations from a re-analysis of the deposited data

How the results depend on the processing

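The 6 called members kept their direction in all 19 alternatives of fitting and sample choice, and each was called in 18 of them. The exception was the fit within the slide row that holds both groups, chosen after seeing the data, with 1 knockdown sample. There 0 genes were called lower or higher by limma (4897 had an unadjusted p below 0.05, with 8 members lower and 1 higher), 0 other pathway genes were called in either direction, and the targeted genes changed by -0.83 (Nfya), 0.83 (Nfyb) and -1.85 (Nfyc). The lone sample is assumed to vary like the controls. The slide row as a block gave the same changes, with the spread also taken from knockdown replicates 2 and 3. Replicate numbers as a block kept 744 lower and 495 higher calls over all genes, and all 6 members. Without a minimum fold, 10 members were lower and 2 higher, 30 and 10 other pathway genes, and 2602 and 2597 genes in all. At a minimum of 2-fold, 3 members remained (Echs1, Acaa2, Ehhadh), 4 other pathway genes were lower, 286 and 181 genes were called lower and higher, and Nfya (-0.76) and Nfyb (0.83) were not called. Leaving out 1 array gave 6 members lower throughout, 0 to 1 higher and 1 to 3 other pathway genes higher. Without control replicate 3, 1 member, Phyh, was called higher.

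Scaling to the array median moved the median of all genes by -0.12, gave 1175 genes lower, 382 genes higher and 14 other pathway genes lower, and turned the sign of 13 uncalled members with changes of 0.0026 to 0.11. Normexp correction with quantile normalization, run on median spot signals because the tables hold no mean signal, gave 560 genes lower, 288 higher, 0 other pathway genes higher and -0.69 for Ehhadh. Requiring signal well above background, or the 20th percentile on all 6 arrays, gave 0 other pathway genes higher, and the slide row as a block gave 2 (Nudt12 and Zadh2). The causes were not tested. Acbd5 was called in 15, Pex11g in 14 and Pmvk in 17 of the 19 alternatives, and Acox2 in 14 of the 17 that tested it, with 0.16 under normexp. With the mean of a gene's probes, Acbd5 was at -0.35 and not called, beside -0.61 with its brightest probe.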

Other observations

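The wider mitochondrial list also held enzymes of branched-chain amino acid and ketone body metabolism, whose changes went in both directions. Ivd, the isovaleryl-CoA dehydrogenase of leucine breakdown, was 2.16, 2.18 and 2.14 in control and 0.95, 0.84 and 0.96 in knockdown, a change of -1.25 (SE 0.051, limma adjusted p = 0.000402). Mcee, the epimerase that acts on methylmalonyl-CoA, changed by -0.82 (SE 0.055, limma adjusted p = 0.00108). Both were called lower. Oxct1, which activates ketone bodies for use, fell by 0.57 (SE 0.046, limma adjusted p = 0.00169), just short of the 1.5-fold threshold. Acat1 fell by 0.36 and Bdh1 rose by 0.19, both past the adjusted test without reaching that threshold. Acad8, the isobutyryl-CoA dehydrogenase of valine breakdown, rose by 0.48 (limma adjusted p = 0.00730). Pccb, a propionyl-CoA carboxylase subunit, and Gcdh, the glutaryl-CoA dehydrogenase, had changes of 0.069 and -0.10 and did not pass the test. Of 26 tested genes in this wider mitochondrial list, 2 were called lower (7.69%, beside 5% of all genes), and 11 were lower and 4 higher at an adjusted p below 0.05 (42.3% and 15.4%, beside 15.8% and 15.7% of all genes). The genes named here were chosen after their values were seen.

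Of 18 tested regulators of fatty acid oxidation, Lpin1 was the only one called, where 5% of all genes were called lower. Pparg, a nuclear receptor for fatty acids, rose by 0.35 (SE 0.046, limma adjusted p = 0.00623), below the fold threshold. Plin2 and Acaca had changes of 0.19 and -0.34 (limma adjusted p = 0.0481 and 0.0252), also below that threshold. Ppara, the receptor best known for driving peroxisomal oxidation genes in liver, had a change of -0.16 (SE 0.082, limma adjusted p = 0.227).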
